A study of Rattus with 4 samples.

Results

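RNA-binding motif (Rbm) genes encode proteins with RNA recognition motifs, and 10 of them other than Rbm25 were examined for RNA that came down with the RBM25 protein: Rbm3, Rbm5, Rbm6, Rbm10, Rbm14, Rbm17, Rbm26, Rbm33, Rbm39 and Rbmx. Their peaks were picked by gene name in the peak lists of 2 RBM25 immunoprecipitates (IP) of H9C2 cells, a rat myoblast line taken from embryonic heart. They came to 12 of 2696 peaks in replicate 1 and 24 of 8108 in replicate 2. In all samples, cells were irradiated with ultraviolet light at 400 mJ/cm2, treated with DNase and digested with micrococcal nuclease. The 2 input samples of the series were not analysed here, and the labels name no drug or genotype for any sample. The series' design text mentions cells overexpressing RBM25 for RNA-seq, and does not say whether the immunoprecipitated cells overexpressed it.

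RBM25 is a nuclear splicing factor that associates with the U1 snRNP, the particle that recognises 5' splice sites. Rbm proteins act on RNA at many steps, and several of them, RBM5, RBM10, RBM17 and RBM39 among them, are splicing factors in human cells. Transcripts of splicing factors are themselves often alternatively spliced, and RBM10 and RBM39 are known in human cells to act on the splicing of their own transcripts.

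A peak here is a stretch of 50-nt bins with a number of tags, the authors' signal per bin, which was not scaled for depth. The lists start at 19 tags (replicate 1) and 20 tags (replicate 2), and library depth is unknown. Tags therefore rank peaks within a list and do not measure a change between replicates. Whether the replicates were separate cultures is not stated in the labels. Peaks of a gene are not independent, and the 95% exact (Clopper-Pearson) intervals given with shares cover counting error only. No p-value was computed, since the peaks are the authors' calls with no counts per sample. Of 7 cardiomyocyte markers Tnnt2 alone had a peak, in each list, and none was listed for 5 myoblast or 3 macrophage markers. Of 5 fibroblast markers, 4 had a peak in replicate 1 and 5 in replicate 2, and 2 held a peak shared between the lists. Over all protein-coding genes, 3.68% had a peak in replicate 1 and 7.25% in replicate 2. The marker counts were not tested and do not identify the cell type. Expression was not measured in the lists, so a missing peak does not show missing RNA.

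Peaks were found in 6 of the 10 genes, against 7.61% of the 23148 protein-coding genes of a RefSeq name table. The 10 genes were chosen with results of these data known, so their shares cannot be read as an enrichment. Of 32 other Rbm genes, 25.0% had a peak in either list. Rbm39, Rbm5, Rbm3 and Rbm10 had a peak in each list, as did 3.31% of protein-coding genes, and Rbm33 and Rbm26 in replicate 2 alone. With peaks at or below the median p-value of their list, 3 genes had a peak in place of 6, and with sense peaks only, 2 had one in each list in place of 4. With all peaks, 4 of 10 genes had a peak in replicate 1 (40.0%, 12.2 to 73.8) and 6 of 10 in replicate 2 (60.0%, 26.2 to 87.8). Among the protein-coding genes, 3.68% had a peak in replicate 1 and 7.25% in replicate 2. The protein-coding genes were not limited to genes expressed in these cells. No peak was listed for Rbm6, Rbm14, Rbm17 or Rbmx. Rbm6 encodes a relative of RBM5 and lies next to Rbm5, and the genes overlap in the name table (assembly GRCr8). Each peak carries 1 gene name, so a peak where genes overlap could stand under the neighbour. Rbm14 encodes a coactivator found in paraspeckles, and overlaps Rbm4 and Rbm4b there, neither of which had a peak. Rbm17 encodes the splicing factor SPF45, and Rbmx the protein hnRNP G.

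**Figure D1:**
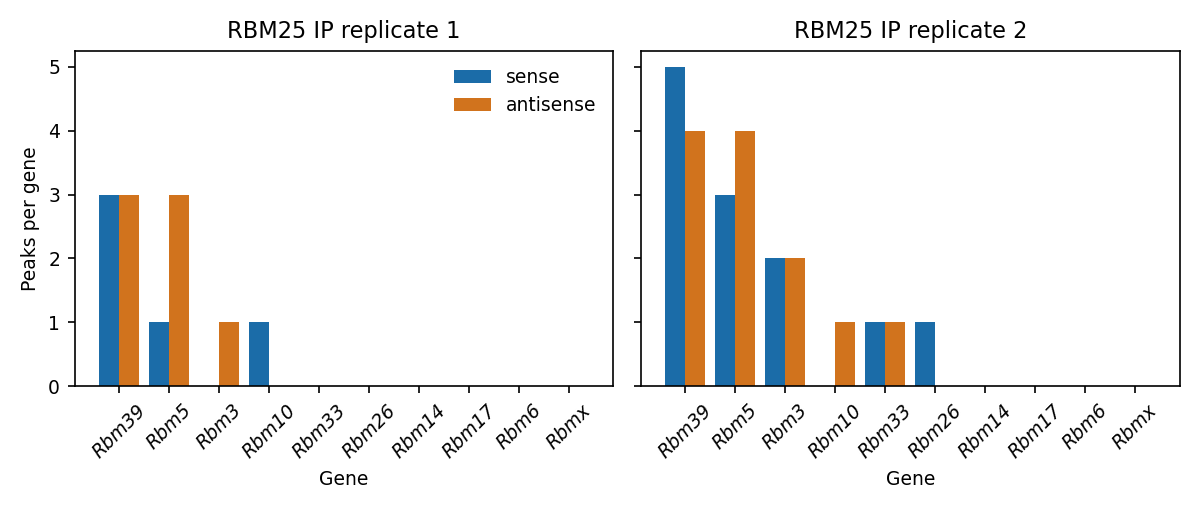
Number of peaks per gene (vertical axis) for the 10 Rbm genes in RBM25 IP replicate 1 (left) and replicate 2 (right), with sense peaks in blue and antisense peaks in orange. Rbm39 led with 6 and 9 peaks, Rbm5 followed with 4 and 7, and Rbm14, Rbm17, Rbm6 and Rbmx had none.

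Rbm39 encodes a U2AF-related splicing factor and had the most peaks of the group. Its 6 peaks in replicate 1 were exceeded by 71 of 922 genes with a peak there, and its 9 in replicate 2 by 175 of 1819. The peaks fell on 5 positions of chromosome 3 (mRatBN7.2, gene on the minus strand) that spanned 6900 nt from the most 5' to the most 3' one. All 6 replicate 1 peaks recurred in replicate 2 on their strand.

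The most 5' position of Rbm39, at 144695900 to 144695950, was 5' UTR over a fraction of 0.98 and intron over 0.02. Its sense peak had 20 tags (replicate 1) and 31 tags (replicate 2), and its antisense peak 21 and 23. At 144693350 to 144693400, 2550 nt further 3', coding sequence filled a fraction of 0.62 and intron 0.38. The sense peak there had 24 tags (replicate 1) and 38 tags (replicate 2), and the antisense peak 27 and 41. By listed tags, a mean over bins in longer peaks, this was the highest position of the group in replicate 2. Its antisense peak stood at percentile 84.8 of the tags in that list.

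The most 3' position of Rbm39 lay wholly in coding sequence and was the highest of the group in replicate 1. At 144688950 to 144689000, its sense peak had 31 tags and its antisense peak 36, percentile 86.7 of that list. In replicate 2 the peaks there were 1 bin longer, to 144689050, with 26 sense and 27 antisense tags. By listed tags, the coding position ranked above the exon-intron position in replicate 1, on either strand, and below it in replicate 2. The replicate 2 tags of the coding position are a mean over 2 bins, and the other values are of single bins. The change of order therefore compares unlike measures.

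Rbm39 had further positions in replicate 2 alone. At 144690150 to 144690200 the sense peak had 29 tags and the antisense peak 27. The deposited annotation calls that bin 5' UTR throughout, although it lies 5750 nt 3' of the first position and beyond peaks annotated as coding. At 144695200 to 144695250 a sense peak had 24 tags, with a fraction of 0.88 in coding sequence and 0.12 in 5' UTR, and it was the only Rbm39 peak with no antisense peak in its bin. The gaps from these positions to the nearest Rbm39 peak of replicate 1 were 1150 and 650 nt.

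**Figure D2:**
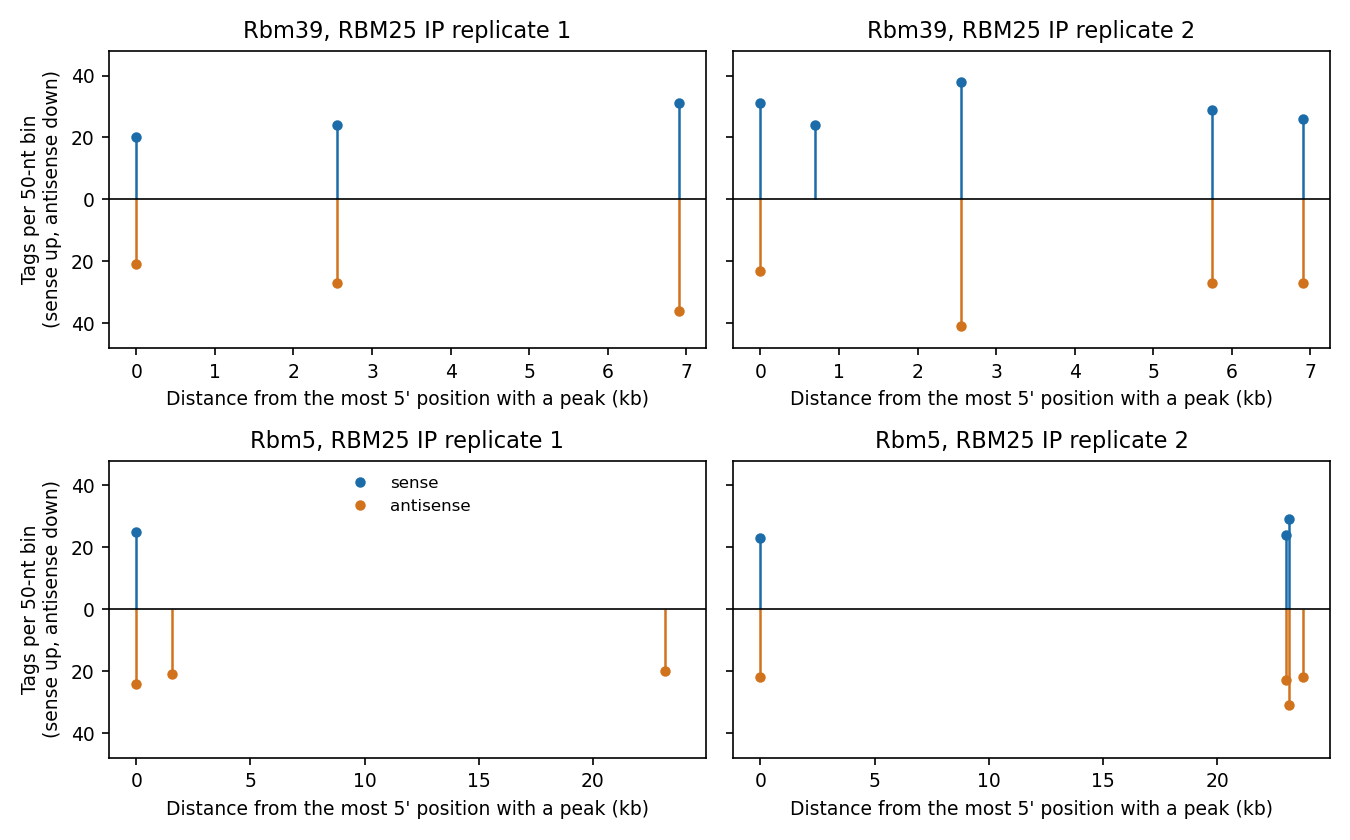
Tags per 50-nt bin of each Rbm39 peak (top) and Rbm5 peak (bottom) in replicate 1 (left) and replicate 2 (right), against distance in kb from the gene's most 5' position with a peak, sense peaks drawn up and antisense peaks down. Rbm39 peaks spread over 6900 nt, and Rbm5 peaks fell in a 5' group and a group at 23000 to 23750 nt.

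Rbm5 encodes a splicing regulator that joins early spliceosomes in human cells. It had 4 peaks in replicate 1 and 7 in replicate 2, on 5 positions of chromosome 8 (minus strand). These fell in a 5' group and in a group 23000 to 23750 nt further 3', with no peak between the groups. Of the replicate 1 peaks, 3 recurred on the same strand.

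The 5' position of Rbm5, at 108447950 to 108448000, had a peak on each strand in each list. The sense peak had 25 tags (replicate 1) and 23 tags (replicate 2), and the antisense peak 24 and 22. By fraction the bin held 0.62 of 5' UTR, 0.34 of coding sequence and 0.04 of intron. An antisense peak of 21 tags at 108446400 to 108446450 was listed in replicate 1 alone, and the nearest Rbm5 peak of replicate 2 was 1500 nt away.

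The 3' group of Rbm5 was fuller in replicate 2. At 108424800 to 108424850 the antisense peak had 20 tags (replicate 1) and 31 tags (replicate 2). The sense peak in that bin had 29 tags in replicate 2 and was not listed in replicate 1. At 108424950 to 108425000, replicate 2 had 24 sense and 23 antisense tags. An antisense peak of 22 tags at 108424200 to 108424250 was also in replicate 2 alone. Both sense bins of this group were mostly intron, with fractions of 0.74 and 0.76.

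Rbm3 encodes a cold-inducible RNA-binding protein. It had 1 peak in replicate 1 and 4 in replicate 2, at 2 positions of chromosome X (plus strand) whose starts were 650 nt apart. At 14351350 to 14351400 the antisense peak had 25 tags (replicate 1) and 31 tags (replicate 2), and replicate 2 added a sense peak of 24 tags, with a fraction of 0.26 in coding sequence and 0.74 in intron. The other position was in replicate 2 alone and held the longest peak of the group, at 151 nt. Its sense peak at 14350700 to 14350800 had 35.5 tags, with 0.56 of coding sequence and 0.44 of intron by fraction, and its antisense peak at 14350700 to 14350850 had 29.

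Rbm10, a relative of Rbm5 that encodes an exon-skipping regulator in human cells, had 1 peak in each list, in the same bin and on opposite strands. At chromosome X, 1570200 to 1570250, replicate 1 had a sense peak of 20 tags and replicate 2 an antisense peak of 23. They were not counted as shared. The bin held fractions of 0.50 of 5' UTR, 0.34 of coding sequence and 0.16 of intron. The 5' position of Rbm5 had the same fraction of coding sequence, with 0.62 of 5' UTR and 0.04 of intron.

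Rbm33 and Rbm26 had their peaks near the lowest tags of replicate 2. Rbm33, whose protein takes part in m6A-linked mRNA export in human cells, had 21 tags on each strand at chromosome 4, 7086750 to 7086800, a bin with a fraction of 0.92 in intron and 0.08 in coding sequence. Rbm26, whose protein takes part in nuclear RNA decay in human cells, had a sense peak of 20 tags at chromosome 15, 81935700 to 81935750, with 0.52 of coding sequence and 0.48 of intron by fraction. Within 2 tags of the lowest peak of its list lay 5 of the 12 peaks of the group in replicate 1 and 5 of 24 in replicate 2, against 823 of 2696 and 2189 of 8108 of all peaks.

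**Figure D3:**
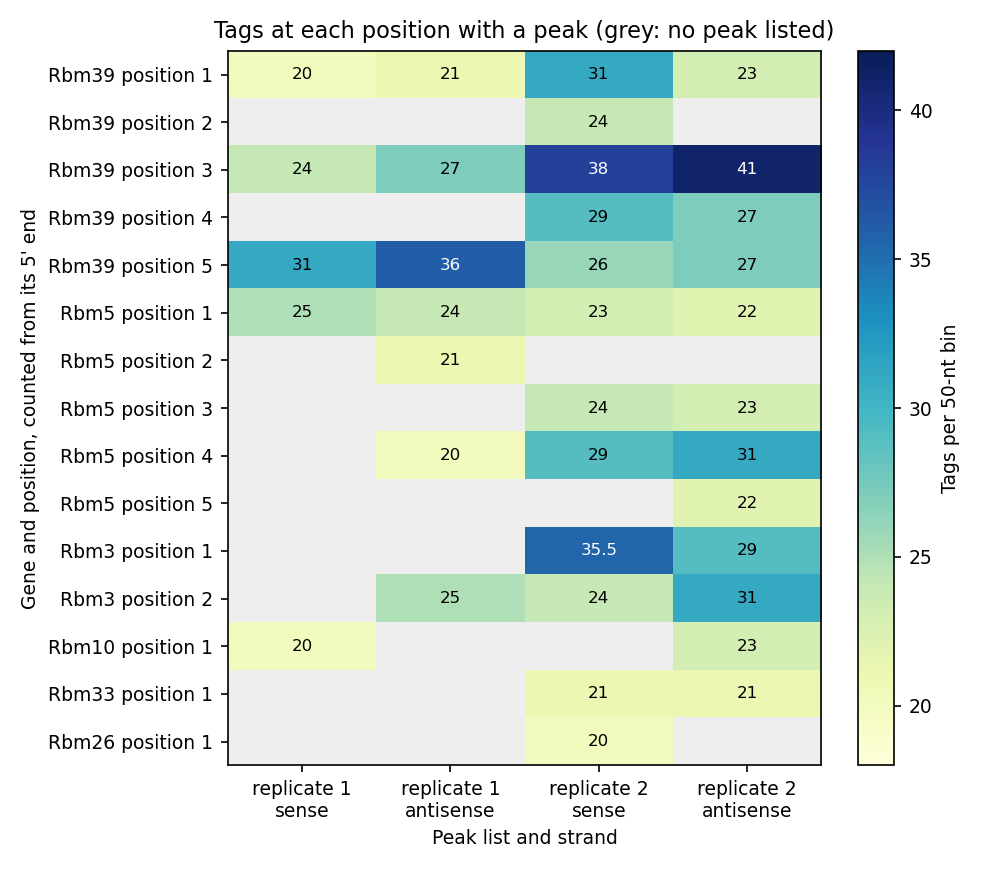
Tags per 50-nt bin (colour and printed value, the higher value where peaks overlap) at the 15 positions of the 6 genes with a peak, counted from the 5' end of each gene, by peak list and strand, with grey where no peak is listed. Rbm39 positions 1, 3 and 5 and Rbm5 position 1 had a peak in all columns, with 20 to 41 tags.

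Merging overlapping peaks of either list and strand gave 15 positions in the 6 genes. In 4 of them, 3 in Rbm39 and 1 in Rbm5, each list had a peak on each strand (26.7%, 7.79 to 55.1). Of 5950 such positions over all genes, 6.81% did. Rbm39 held 5 of the 15 positions, so the share of the group rests largely on 1 gene. A further 4 positions had a single peak, 26.7% (7.79 to 55.1), and that interval holds the 46.5% over all genes. Rbm3, Rbm10, Rbm33 and Rbm26 had no position with a peak on each strand in each list.

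Recurrence was then counted peak by peak. Of the 12 replicate 1 peaks, 10 recurred in replicate 2 on their strand (83.3%, 51.6 to 97.9), against 62.1% of all genic peaks of that list. Of the 24 replicate 2 peaks, 10 overlapped a replicate 1 peak (41.7%, 22.1 to 63.4), against 20.4%. The first interval holds the value over all genic peaks. Rbm39 supplied 6 of the 10 shared peaks. Without it, 4 of 6 peaks recurred in replicate 1 (66.7%, 22.3 to 95.7) and 4 of 15 in replicate 2 (26.7%, 7.79 to 55.1), and both intervals hold the values over all genic peaks. By gene, Rbm39, Rbm5 and Rbm3 held a shared peak, 3 of 10, against 2.62% of protein-coding genes. That is 3 of the 6 genes with a peak in either list, against 34.1% of all genes with one. Since the 10 genes were chosen with results of these data known, these shares by gene do not measure an enrichment.

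At the 10 shared peaks the replicate 2 tags were 0.750 to 1.58 times the replicate 1 tags, with a median of 1.17. Replicate 2 was the higher in 6 of these 10, against 1232 of all 1609 shared genic peaks, over which the median was 1.25. A ratio enters only where both lists called the peak, which narrows the range. The extremes of the group were both in Rbm39, the coding position (antisense) and the exon-intron position (sense). At the coding position the replicate 2 tags are a mean over 2 bins and the replicate 1 tags are of 1 bin, so its ratios compare unlike measures. Among shared peaks with identical ends, the lowest ratio was 0.917, at the antisense peak of the 5' position of Rbm5. The 5' position of Rbm5 had slightly more tags in replicate 1, on both strands.

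Antisense peaks made up 7 of 12 in replicate 1 (58.3%, 27.7 to 84.8) and 12 of 24 in replicate 2 (29.1 to 70.9), near the 53.7% and 50.7% of all genic peaks. A peak of the opposite strand in the same list overlapped 8 of 12 peaks in replicate 1 (66.7%, 34.9 to 90.1) and 20 of 24 in replicate 2 (83.3%, 62.6 to 95.3), against 45.9% and 70.3%. Both intervals hold the values over all genic peaks. The shares were 66.7% and 84.6% in other Rbm genes, and 57.1% and 84.1% in U1 snRNP and LUC7-like genes. In SR protein genes they were 53.3% and 80.0%, and in hnRNP genes 40.0% and 81.1%. Without Rbm39 the counts of the group were 2 of 6 in replicate 1 and 12 of 15 in replicate 2. In the 13 pairs with identical ends, 4 in replicate 1 and 9 in replicate 2, antisense tags were 0.742 to 1.29 times the sense tags. The medians were 1.09 in replicate 1 and 1.00 in replicate 2, against 1.05 and 1.04 over 538 and 2492 pairs of all genes. The lowest ratio was at the 5' position of Rbm39 in replicate 2 (23 antisense and 31 sense tags), and the highest at the 3' position of Rbm3 (31 and 24). A pair enters only where both strands reached the lowest called tags, which narrows the range.

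**Figure D4:**
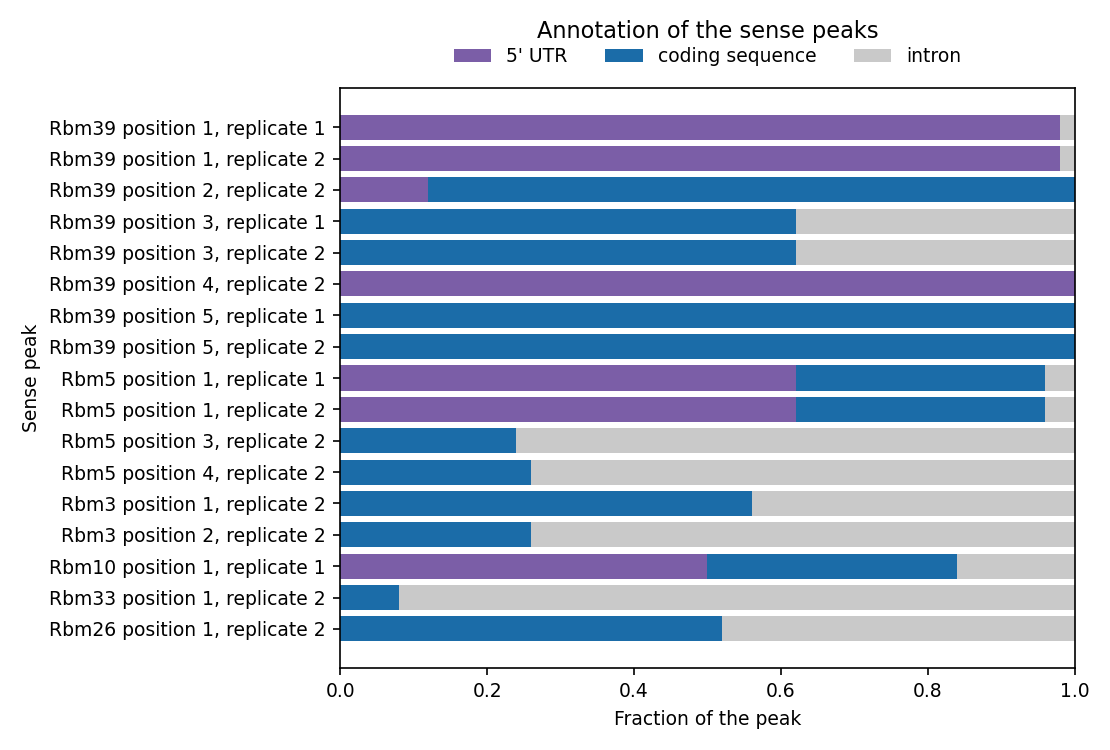
Fraction of each sense peak in 5' UTR (purple), coding sequence (blue) and intron (grey) by the deposited annotation, for the 17 sense peaks of the 6 genes, labelled by gene, position from the 5' end and replicate. Exon and intron sequence stand together in 13 of them, and 5' UTR appears in 7.

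Exon and intron sequence stood together in 4 of the 5 sense peaks of replicate 1 (80.0%, 28.4 to 99.5) and 9 of the 12 of replicate 2 (75.0%, 42.8 to 94.5), near the 67.8% and 71.2% of all sense peaks. All sense peaks of Rbm5, Rbm3, Rbm10, Rbm33 and Rbm26 did so, and the exceptions were in Rbm39. Where at least a fraction of 0.1 in each was required, 2 of 5 and 6 of 12 remained, against 55.8% and 60.1%. The peaks dropped were the 5' positions of Rbm39 and Rbm5 in each list, with 0.02 and 0.04 of intron, and the Rbm33 peak, with 0.08 of coding sequence. No sense peak of the group lay wholly in intron or touched a 3' UTR. Both classes were rare over all sense peaks. In replicates 1 and 2, 4.00% and 5.07% lay wholly in intron, and 0.917% and 2.03% touched a 3' UTR. Their absence from 5 and 12 peaks therefore does not set the group apart.

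Sense peaks that touched a 5' UTR numbered 3 of 5 in replicate 1 (60.0%, 14.7 to 94.7) and 4 of 12 in replicate 2 (33.3%, 9.92 to 65.1). Over all sense peaks the shares were 11.0% and 7.25%. Among the gene lists compared below, SR protein genes had 3 of 9 (33.3%) and 3 of 15 (20.0%). The hnRNP genes had 21.4% and 7.69%, and U1 snRNP and LUC7-like genes 11.1% and 10.0%. Other Rbm genes had 0 of 6 (0 to 45.9) and 1 of 13 (0.195 to 36.0). These intervals overlap those of the group, so the counts are too few to tell the group from its family. The differences between lists were not tested. The peaks of the group came from 3 genes, Rbm39, Rbm5 and Rbm10. Of the 4 in replicate 2, 3 were in Rbm39, so the count is of few independent positions. The Rbm39 peak at 144690150 to 144690200, 3' of coding peaks, is among them, and without counting it replicate 2 had 3 of 12. This measure was chosen after the values were seen.

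The genes whose numbers of sense and antisense peaks in each list were nearest to those of Rbm39 were Afap1, Akap8l and Baz1b, each with a summed difference of 1 peak over the 4 counts. In all, 7 genes stood at that distance, and these are the first by symbol. For Rbm5 they were Amotl2, Arhgef17 and Bcat1, likewise at 1 peak and out of 5 genes. The likeness rests on small counts.

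Of 32 other genes of the Rbm family, 31 were in the name table as protein-coding, Rbm23 being the exception. Among the 32, 8 had a peak in either list, 4 in replicate 1 and 7 in replicate 2, and 3 held a shared peak: Rbm28, Rbm8a and Rbms3. Rbm28, whose protein takes part in ribosome assembly, had 5 peaks in replicate 1 with 20 to 26 tags and 7 in replicate 2 with 22 to 45. All 5 recurred. Rbm8a, which encodes the exon junction complex subunit Y14, had a shared sense peak at chromosome 2, 184165600 to 184165650, with 20 tags in replicate 1 and 28 in replicate 2. As a share of the list, genes with a peak in either replicate were 60.0% of the 10 genes (26.2 to 87.8) and 25.0% of the 32 (11.5 to 43.4). The 10 were chosen with results of these data known.

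**Figure D5:**
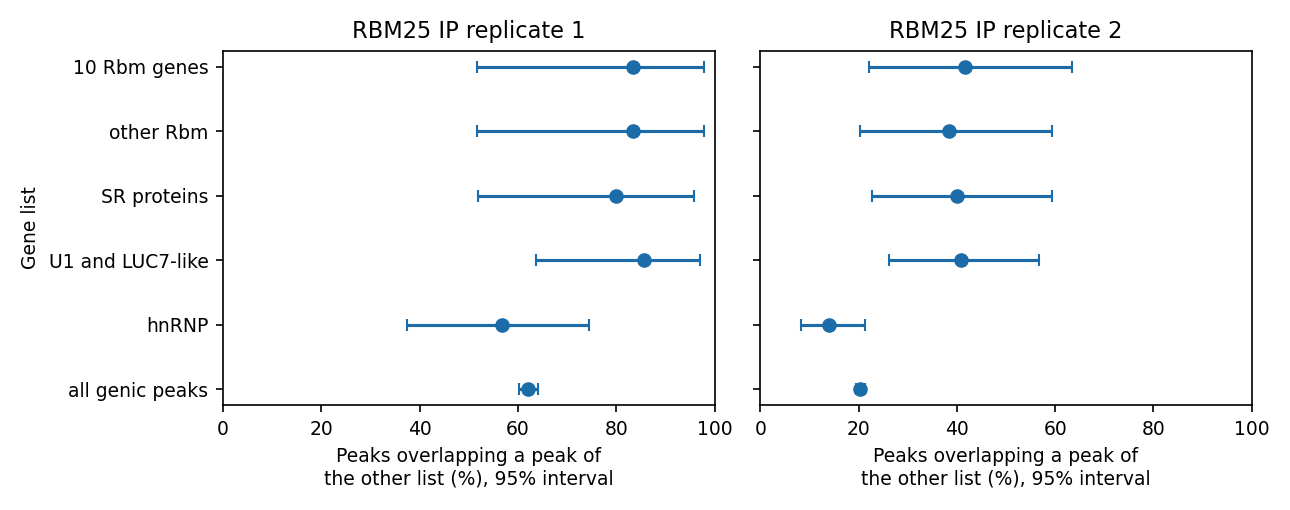
Share of peaks that overlap a peak of the other list on the same strand (percent, horizontal axis) in RBM25 IP replicate 1 (left) and replicate 2 (right), for the 10 Rbm genes, 4 other gene lists and all genic peaks, with 95% exact intervals as bars. In replicate 1 the 10 Rbm genes stood at 83.3% and all genic peaks at 62.1%.

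Against 83.3% of replicate 1 peaks in the group, 10 of 12 peaks also recurred in the other Rbm genes (83.3%, 51.6 to 97.9). The shares were 80.0% (12 of 15 peaks, 51.9 to 95.7) in SR protein genes, 85.7% (18 of 21, 63.7 to 97.0) in U1 snRNP and LUC7-like genes, and lower, at 56.7% (17 of 30, 37.4 to 74.5), in hnRNP genes. In replicate 2, against 41.7% in the group, the shares were 38.5% in other Rbm genes, 40.0% in SR protein genes, 40.9% in U1 snRNP and LUC7-like genes and 13.9% in hnRNP genes. The median tags of the group, 24 in replicate 1 and 25 in replicate 2, were below those of SR protein genes (28 and 36.2) and of U1 snRNP and LUC7-like genes (30 and 37.5). The other Rbm genes had medians of 21 and 27, the hnRNP genes 23 and 30.5, and all genic peaks 24 and 26. These differences between lists were not tested.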

How the data were processed

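RBM25-bound RNA of H9C2 cells was sequenced by the submitters as stranded total RNA libraries with 150-nt read pairs, per the labels' protocols. Reads were aligned with HISAT2 and the build was mRatBN7.2, per the submitters' processing notes. For the peak caller, its filters and its use of inputs, the details were not given in the sources used here. Each deposited list is of 1 IP sample by its name. Tags are the authors' signal by the header and values, whole in 51-nt peaks and a mean over bins in longer ones, with no scaling for depth. The deposited p-value served to rank peaks. Length in nt was used as the authors deposited it.

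Gene names were taken after removing a leading prefix. A peak was shared where a peak of the other list and its strand overlapped it; touching bins did not count. Orientation and location are those of the deposited annotation. The 10 genes, the other lists and the named genes (all 10 genes, other Rbm genes with a peak, and the 3 genes nearest in peak numbers to each of the 2 genes with most peaks) were chosen with earlier results of these data known. A planned comparison of protein sequences was not run, and sequences of the build were not used here. Names were matched to RefSeq (GRCr8) by symbol: all 10 genes matched. The overlap and annotation steps recovered all planted counts in 4 of 4 simulated lists of 2600 peaks. Only planted peaks could overlap there, so this checks the counting code alone. The simulated lists held no overlapping peaks of opposite strands, so the counts of opposite-strand peaks were not checked. Alternatives covered the threshold, peak length, overlap, strand, replicate and location. Software was Python 3.11.15 with pandas 2.3.3, numpy 2.4.6, matplotlib 3.10.9 and scipy 1.17.1.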

Additional observations from a re-analysis of the deposited data

How the results depend on the processing

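Of 40 values under alternatives for the Rbm genes, 33 stayed within 1.5 times the count, or within the interval of the share, and 7 moved. With peaks at or below the median p-value of their list, genes with a peak numbered 3 (Rbm3, Rbm5 and Rbm39) in place of 6, and shared peaks to 5 of 7 in replicate 1 and 5 of 11 in replicate 2. With sense peaks only, 2 genes had a peak in both lists in place of 4, and shared peaks were 4 of 5 and 4 of 12, since fewer peaks enter. With at least 10% of a peak in exon and 10% in intron, boundary peaks were 47.1% of sense peaks in place of 76.5%. Leaving out a replicate gave 4 to 6 genes with a peak, antisense shares of 50% to 58.3%, boundary shares of 75.0% to 80.0% and mirrored shares of 66.7% to 83.3%. Overlap on either strand added Rbm10 to the genes with a shared position, 4 in place of 3. No paired analysis was possible because the inputs have no values here and the peak lists give no test. Depth is unknown, so the lengths of the lists limit every count.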

Other observations

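Among the remaining Rbm genes, Rbms3, which encodes a single-stranded nucleic acid binding protein, had the highest single peak in each list. In replicate 2 Rbm28 came next, with 45 tags. Rbms3 carried 4 peaks in each list on chromosome 8, and all of them recurred with identical ends. Its sense peak at 116877200 to 116877250 had 39 tags (replicate 1) and 46 tags (replicate 2), and the antisense peak in that bin 20 and 34. Its sense peak at 116877350 to 116877450 had 39.5 tags (replicate 1) and 29.5 tags (replicate 2). Both sense peaks lay wholly in intron. None of the 17 sense peaks of the 10 genes did, and over all genes 4.82% of sense peaks did.

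Rbm19, whose protein takes part in ribosome assembly, had 5 peaks in replicate 2 with 22 to 35 tags and none in replicate 1. Rbms2 had 4 peaks in replicate 2 with 20 to 27 tags, on both strands of 2 bins, and none in replicate 1. Rbm15, which encodes a subunit of the m6A methyltransferase complex, was the reverse. It had a sense and an antisense peak in replicate 1, each of 21 tags and in different bins, and none in replicate 2. Rbm42 had 1 antisense peak of 23 tags and Rbms1 1 sense peak of 21 tags, both in replicate 2 alone.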
